A study of Mus musculus with 36 samples.

Results

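The 9 genes of glucocorticoid activation and response were followed across the developing mouse liver, picked by symbol from the table of FPKM values (fragments per kilobase of exon, scaled to the mapped reads of each library): the receptor Nr3c1, the enzymes Hsd11b1 and Hsd11b2, the plasma carrier Serpina6, and the target genes Fkbp5, Tsc22d3, Sgk1, Dusp1 and Zbtb16. All 9 symbols were found among the 21889 in the table. Of these, 8 were tested because their mean reached 1 FPKM at some age, as it did for 11149 genes in all, and Zbtb16 stayed under that level. The livers came from 36 male C57BL/6J mice, an inbred strain, with no treatment and no engineered allele in any group. There were 3 mice at each age: GD17.5 (a gestational age shortly before birth), Day 0 (directly after birth), Day 1 (a full day later), Days 3 and 5, then steps of 5 days from Day 10 to Day 30, and lastly Day 45 and Day 60, the adult reference. Litters were mixed, each mouse was sampled at a single age, and the livers of Days 3 to 60 were taken at a fixed hour of the morning, whereas Days 0 and 1 followed the hour of birth.

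Corticosterone, the main glucocorticoid of the mouse, comes from the adrenal cortex and travels in plasma bound to corticosteroid-binding globulin, the product of Serpina6, which the liver secretes. Inside the hepatocyte, 11-beta-hydroxysteroid dehydrogenase type 1 (Hsd11b1) regenerates active corticosterone from its inert 11-keto form. The type 2 enzyme (Hsd11b2), an enzyme of kidney and placenta, runs the opposite way. The hormone-bound receptor leaves its Hsp90 chaperone complex, enters the nucleus and binds DNA at palindromic response elements near genes such as Fkbp5, Tsc22d3, Sgk1 and Zbtb16. Around birth, glucocorticoids are known for preparing the liver to make glucose and to mature its metabolic enzymes.

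In the NCBI37/mm9 build used for the deposited values, with GENCODE M1 gene models, Hsd11b1 lies at chr1:195047824-195090248 on the minus strand, and Hsd11b2 at chr8:108042646-108047884 on the plus strand. Serpina6 lies at chr12:104884840-104895422 (minus), Fkbp5 at chr17:28536040-28654469 (minus), Tsc22d3 at chrX:137074067-137135198 (minus), Sgk1 at chr10:21601990-21719709 (plus), Dusp1 at chr17:26642535-26645464 (minus) and Zbtb16 at chr9:48462416-48644050 (minus). All 9 are protein-coding. Hsd11b1 overlaps 2 genes on the opposite strand and Fkbp5 overlaps 1 small RNA gene on the opposite strand. The strand setting of the library kit is not given in the sources used here, so reads from these partners could not be told apart.

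Promoter windows from RefSeq (GRCm38.p6, 250 bases before to 50 bases after a gene start) were found for 5 of the 9 members, with 12 windows in all, for Hsd11b1, Sgk1, Dusp1, Fkbp5 and Tsc22d3. They were searched on both strands for the full palindromic glucocorticoid response element, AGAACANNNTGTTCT, for its single arm AGAACA, which the full element contains, and for the cAMP response element TGACGTCA. The full element matched in 1 of the 12 windows, at an Sgk1 start (chr10:21993640-21993939, plus strand), and in 3 of all 32851 promoter windows (0.00913%). The single arm was present in 4 of the 12 windows, 3 of Sgk1 and 1 of Tsc22d3, and in 18.97% of all windows. Sgk1 and Tsc22d3 each had several windows, so the 12 windows are not separate genes. The cAMP element matched at Dusp1 (chr17:26508423-26508722, minus strand) and in 1.79% of all windows. The windows of Fkbp5 and Hsd11b1 held none of these motifs. The windows shown are the Sgk1 start with the full element, the Tsc22d3 start with the single arm (chrX:140600473-140600772, minus strand) and the Dusp1 start. They were picked with the expression values known. Sgk1 and Tsc22d3 deviated together between mice of an age, and Dusp1 was not called at birth. The calls of Tsc22d3 and Sgk1 at birth leaned on single mice, as given below. No motif was tested against expression. The capitals mark the full element in Sgk1, the arm in Tsc22d3 (there as TGTTCT, its reverse complement) and the cAMP element in Dusp1, each read 5′ to 3′ along the gene.
Sgk1: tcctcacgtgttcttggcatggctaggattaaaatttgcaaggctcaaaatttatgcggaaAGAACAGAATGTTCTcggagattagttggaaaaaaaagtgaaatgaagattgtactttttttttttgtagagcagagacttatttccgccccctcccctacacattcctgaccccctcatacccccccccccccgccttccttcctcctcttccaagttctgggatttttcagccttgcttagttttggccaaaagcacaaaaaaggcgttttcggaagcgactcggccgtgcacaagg
Tsc22d3: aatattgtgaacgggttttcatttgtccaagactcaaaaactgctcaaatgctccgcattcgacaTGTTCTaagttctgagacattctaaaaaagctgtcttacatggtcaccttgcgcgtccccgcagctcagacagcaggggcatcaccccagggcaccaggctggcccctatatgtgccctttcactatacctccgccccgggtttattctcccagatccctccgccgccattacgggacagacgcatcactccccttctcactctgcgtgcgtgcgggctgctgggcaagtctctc
Dusp1: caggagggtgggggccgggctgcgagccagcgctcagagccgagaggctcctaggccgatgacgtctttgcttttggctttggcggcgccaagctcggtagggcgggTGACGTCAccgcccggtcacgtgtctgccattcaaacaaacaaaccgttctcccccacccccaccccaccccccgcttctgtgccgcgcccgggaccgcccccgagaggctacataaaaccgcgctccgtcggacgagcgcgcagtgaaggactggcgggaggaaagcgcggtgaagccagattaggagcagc
The matched Sgk1 site, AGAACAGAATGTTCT, starts 189 bases before that gene start. A match is only a description of these letters, and no binding was measured.

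Summed FPKM per mouse was 353712 to 450597, and the values of 715 low genes gave relative depths of 0.888 to 1.122 around the typical library. Markers of hepatocytes were high in every mouse (9 genes, summed 8826 to 96930 FPKM). The libraries that stood apart most within their age were 3. Day 0 mouse 1 had 1298 FPKM summed over 8 skeletal muscle markers, with all 8 above both other Day 0 mice (4.10 and 4.60 FPKM summed; Myh3 at 0 in both). Day 10 mouse 1 had 86.9 FPKM of the same list, against 8.36 and 1.197. Day 1 mouse 2 had 53.9 FPKM over 6 kidney markers, with all 6 above both others (0.114 and 3.27). The 3.27 FPKM belonged to Day 1 mouse 3, beside at most 0.283 FPKM in any mouse of another age. Day 1 mouse 3 stays in the results without the 2 mice. Adrenal cortex markers, 7 genes, summed to no more than 1.09 FPKM in any mouse, and Cyp11b1, the enzyme that completes corticosterone synthesis, was at 0 in every mouse but 1 (0.00584 FPKM). Results that rest on Day 0 mouse 1 or Day 1 mouse 2 are given with and without them.

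From GD17.5 to Day 0 the carrier Serpina6 fell, while the activating enzyme Hsd11b1 and the target Fkbp5 rose, with all mice and without Day 0 mouse 1 and Day 1 mouse 2. With all mice the targets Tsc22d3 and Sgk1 were also called higher and the inactivating enzyme Hsd11b2 lower. Without these 2 mice Tsc22d3 (adjusted p = 0.111) and Sgk1 (adjusted p = 0.397) were not called and Hsd11b2 was under the filter. The receptor Nr3c1 and the target Dusp1 did not pass the test in either case. With all mice this is 6 of the 8 tested members at an adjusted p under 0.05 (limma, Benjamini-Hochberg over all 11149 genes). Among all genes tested in that fit 54.6% were called, 13.1% higher and 41.4% lower. Without the 2 mice it is 3 of 7, in a fit over 11077 genes whose share of calls is not given here. The shares of all genes given below are also from the fit with all mice. For all 9 members the 3 mice of one age lay entirely apart from the 3 of the other, which held for 60.8% of all genes tested. The fold changes below are on the log2(FPKM + 1) scale, which understates changes of genes near or under 1 FPKM.

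The median gene fell by 0.29 on the log2 scale from GD17.5 to Day 0, and 24.1% of calls were higher; after scaling the libraries to a common upper quartile the median was -0.08 and 43.5% of calls were higher. Relative to the unscaled median, the differences were 2.10 for Hsd11b1, 1.26 for Fkbp5, 1.06 for Sgk1, 0.89 for Tsc22d3, -0.10 for Dusp1, -0.31 for Hsd11b2, -0.56 for Nr3c1 and -6.52 for Serpina6. All 10 erythroid markers fell, their sum going from 127400 to 185300 FPKM at GD17.5 to 60100 to 80480 FPKM at Day 0, with none at 0. Of the 9 hepatocyte markers 8 rose, their sum going from 8826 to 10700 FPKM to 51340 to 63200 FPKM. The part of these shifts in the members' values was not tested, and in bulk tissue fewer cells of a type and less RNA per cell cannot be told apart.

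**Figure D1:**
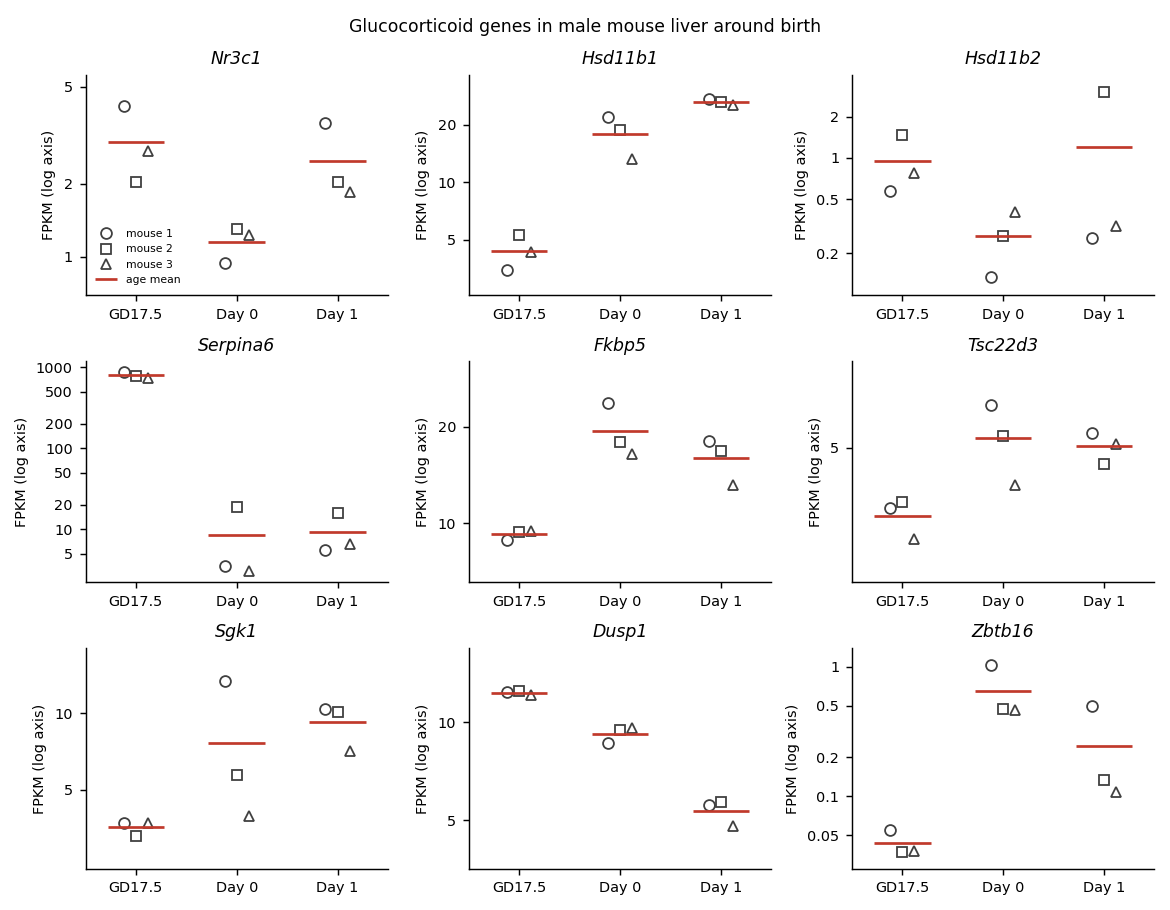
FPKM (log axis) of the 9 genes in each of 3 mice at GD17.5, Day 0 and Day 1, with the age mean as a bar. Serpina6 drops from 746 FPKM or more to 18.7 FPKM or less, Hsd11b1 climbs over all 3 ages, and Day 0 mouse 1 (circle) is the highest Day 0 mouse for Hsd11b1, Sgk1, Tsc22d3, Fkbp5 and Zbtb16.

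Serpina6, the carrier, gave the largest fall of all 11149 genes tested. Its 3 fetal livers held 873, 769 and 746 FPKM. At Day 0 the 3 mice held 3.48, 18.7 and 3.02 FPKM, a mean 94.7-fold lower (log2 fold change -6.81 ± 0.38 SE, adjusted p = 1.77e-14), and without Day 0 mouse 1 and Day 1 mouse 2 the log2 fold change was -6.48 (adjusted p = 2.48e-13). No newborn overlapped a fetus. Of the 9 hepatocyte markers 8 rose in the same step, and their part in the Serpina6 values was not tested. The gene stayed low for days: Day 1 mice held 5.48, 15.7 and 6.51 FPKM, Day 3 mice 2.60, 2.19 and 3.39 FPKM and Day 5 mice 6.85, 7.58 and 7.04 FPKM. No tested member was called from Day 3 to Day 5 (limma; 2 at an unadjusted p under 0.05, Serpina6 and Fkbp5; 3.2% of all genes called, 1.09% higher and 2.12% lower). The Day 3 mean of 2.73 ± 0.61 FPKM (SD, n = 3) was the lowest of any age. The further fall from Day 1 to Day 3 (-1.34 ± 0.38 SE, adjusted p = 0.0197) was lost without Day 1 mouse 2, at -0.92, and without Day 3 mouse 1 or mouse 2, at -1.32 and -1.23.

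Serpina6 then came back between Day 5 and Day 15. Day 10 livers held 95.5, 183 and 142 FPKM, a mean 19.6-fold above Day 5 (log2 fold change 4.07 ± 0.38 SE, adjusted p = 2.55e-09, against 36.3% of all genes called in that step, 1.88% higher and 34.4% lower). Day 15 livers held 379, 402 and 460 FPKM, higher again (1.60 ± 0.38 SE, adjusted p = 0.00446; 12% of genes called), and Day 20 livers 414, 343 and 411 FPKM. From this second high the values went down. Day 25 livers held 223, 239 and 206 FPKM, Day 30 livers held 118 to 139 FPKM, Day 45 livers 96.1 to 130 FPKM, and Day 60 livers 74.1, 90.2 and 160 FPKM. None of these steps down was called by limma. Day 20 to 25 gave -0.80 (limma, adjusted p = 0.243) and Day 25 to 30 gave -0.83 (limma, adjusted p = 0.467). Days 15 and 20 were above Day 60 (2.00 and 1.91, adjusted p = 0.000162 and 0.000474), and the fetal value was higher still (2.94, adjusted p = 5.76e-08). The second high reached 413.6 ± 41.4 FPKM (SD, n = 3), below the fetal 795.8 ± 68.1 FPKM with no overlap between the mice.

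Hsd11b1, the enzyme that regenerates corticosterone, had its lowest mean in the fetus and its highest in the adult. Fetal livers held 3.45, 5.28 and 4.32 FPKM and Day 0 livers 21.9, 18.7 and 13.2 FPKM, a 4.12-fold rise with no overlap (log2 fold change 1.81 ± 0.20 SE, adjusted p = 2.15e-08). It ranked 239 among the rises of all 11149 genes tested. Without Day 0 mouse 1 and Day 1 mouse 2 the rise was 1.66 (adjusted p = 1.09e-06). Day 1 livers held 27.2, 26.4 and 25.5 FPKM, all above all 3 newborns, and Hsd11b1 was the single tested member called from Day 0 to Day 1 (0.56 ± 0.20 SE, adjusted p = 0.0318), in a step where 31.6% of all genes were called, 23.7% higher and 7.88% lower; 75.02% of those calls were higher, or 54.9% after upper-quartile scaling. That call was lost with upper-quartile scaling (0.41, adjusted p = 0.123) and without Day 0 mouse 3, Day 1 mouse 1 or Day 1 mouse 2 (log2 fold changes 0.37 to 0.56).

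The later steps carried Hsd11b1 to its adult level. Day 3 mice held 69.8, 42.6 and 40.6 FPKM, above Day 1 (0.88 ± 0.20 SE, adjusted p = 0.00324; 11.3% of genes called, 8.22% higher and 3.09% lower), Day 10 mice 92.5, 59.9 and 72.8 FPKM and Day 20 mice 147, 190 and 197 FPKM. The steps to Day 10 from Day 5 (0.60, adjusted p = 0.0192) and to Day 20 from Day 15 (0.85, adjusted p = 0.0163; 1.99% of genes called) passed the test. Both were lost when a single mouse of those ages was left out, the first at 0.44 without Day 10 mouse 1, the library with muscle markers, and the second at 0.74 without Day 15 mouse 3. Day 60 livers were the highest at 213, 250 and 195 FPKM, a mean 50.4-fold above GD17.5. Every age up to Day 15 lay below Day 60, from -5.37 ± 0.20 SE at GD17.5 (adjusted p = 6.15e-20) to -1.15 at Day 15 (adjusted p = 4.48e-05), and Day 20 did not pass (-0.30, adjusted p = 0.357). Day 25 was just called (-0.63, adjusted p = 0.049), and that call was lost in 26 of 44 alternatives.

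Hsd11b2, the inactivating enzyme of kidney and placenta, was low at every age. Fetal livers held 0.576, 1.49 and 0.778 FPKM and Day 0 livers 0.134, 0.269 and 0.400 FPKM, without overlap (log2 fold change -0.60 ± 0.23 SE, adjusted p = 0.0334). The call was lost without Day 0 mouse 1 (-0.52, adjusted p = 0.104), without GD17.5 mouse 2 (-0.41, adjusted p = 0.189) or without Day 0 mouse 2 (-0.60, adjusted p = 0.0635). At Day 1 the mice held 0.258, 3.03 and 0.316 FPKM, and the high value belongs to the library with the kidney markers; that single mouse carried Hsd11b2 through the filter. Without it the Day 1 mean was 0.287 FPKM, no age reached 1 FPKM, and the gene was not tested.

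The level of Hsd11b2 stayed between 0.298 and 0.784 FPKM on Days 3 to 10 and then ran down. Day 15 mice held 0.101, 0.0543 and 0.154 FPKM, Day 20 mice 0.0420, 0.0503 and 0.0612 FPKM, and Day 30 mice 0.00530, 0.00689 and 0.00739 FPKM. At about 141 fragments per FPKM for this gene, the Day 30 mean amounts to about 0.923 fragments a library, so nothing among the adult ages can be ranked. A single Day 45 mouse was at 0. The ratio of the mean of Hsd11b1 to that of Hsd11b2, both in FPKM and so per length, was 4.60 at GD17.5 and 66.96 at Day 0. It was 21.96 at Day 1, where mouse 2 sets the Hsd11b2 mean. From Day 3 the next 4 ages had ratios of 124.6, 88.4, 162 and 952, and at later ages the ratio rests on a few fragments.

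**Figure D2:**
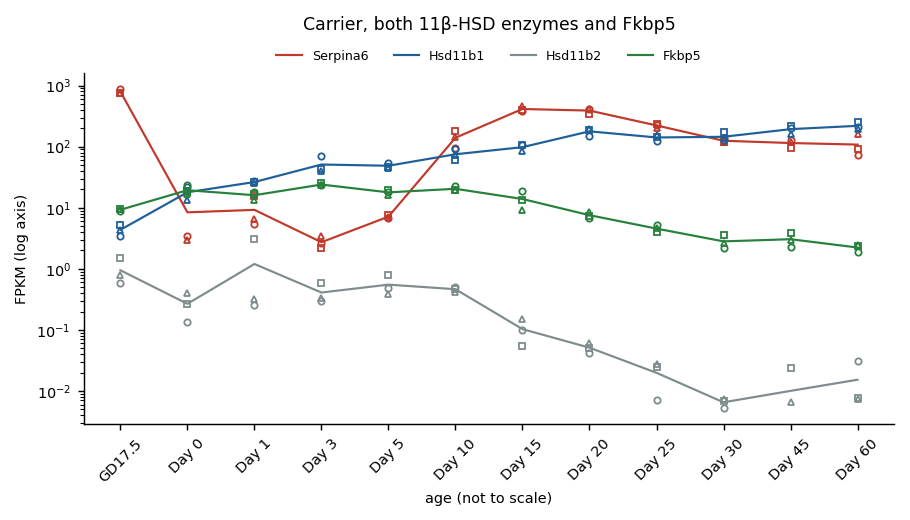
FPKM (log axis) of Serpina6, Hsd11b1, Hsd11b2 and Fkbp5 at the 12 ages (age axis not to scale), with each mouse as a symbol and lines through age means; a value of 0 is not drawn. Serpina6 falls and returns by Day 15, Hsd11b1 climbs to 219 FPKM at Day 60, Hsd11b2 falls to a few thousandths of an FPKM, and Fkbp5 leaves its plateau after Day 10.

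Nr3c1, the receptor (NCBI37/mm9, chr18:39570199-39650955, minus strand), varied widely between mice of an age. Over all 36 mice it lay between 0.612 and 5.03 FPKM with a median of 2.20 FPKM, and the median coefficient of variation within an age was 40.4%. Fetal mice held 4.15, 2.02 and 2.71 FPKM, Day 0 mice 0.942, 1.296 and 1.23 FPKM and Day 1 mice 3.56, 2.03 and 1.85 FPKM. Day 0 was the lowest of all ages and overlapped neither neighbour, yet the difference from GD17.5 did not pass the test (log2 fold change -0.85 ± 0.39 SE, adjusted p = 0.0673). Day 0 was below Day 60 (-0.96 ± 0.39 SE, adjusted p = 0.0326), and this was the only age called. The call was lost in 7 of 43 alternatives, without Day 0 mouse 1 (-0.89, adjusted p = 0.0841) among them. By a Dunnett test against Day 60, the kind of test the authors used, Nr3c1 differed at 0 ages. In the order of the 12 age means, whose highest was Day 15 with 3.76 FPKM and lowest Day 0 with 1.16 FPKM, all 11 pairs of neighbours overlapped.

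Fkbp5, a co-chaperone that lowers the receptor's affinity for hormone and is itself induced by the receptor, had the lowest median coefficient of variation within an age among the 5 targets (12.96%). Fetal livers held 8.88, 9.41 and 9.49 FPKM and Day 0 livers 23.7, 17.9 and 16.5 FPKM, a 2.09-fold rise without overlap (log2 fold change 0.97 ± 0.19 SE, adjusted p = 8.79e-05). Day 0 mouse 1 was the highest, and without it and Day 1 mouse 2 the rise was 0.83 (adjusted p = 0.00172). The level then held: 18.1, 16.9 and 13.2 FPKM at Day 1, 23.2, 25.3 and 23.4 FPKM at Day 3, 18.4, 19.3 and 15.9 FPKM at Day 5 and 22.8, 19.2 and 19.3 FPKM at Day 10. The highest mean, 23.97 ± 1.16 FPKM (SD, n = 3), was at Day 3, and the step up from Day 1 (0.56, adjusted p = 0.0478) was lost in 31 of 44 alternatives.

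From Day 10 on Fkbp5 declined. Day 15 mice held 19.1, 13.5 and 9.06 FPKM, Day 20 mice 6.80, 7.19 and 8.66 FPKM, Day 25 mice 5.13, 3.95 and 4.59 FPKM and Day 60 mice 1.91, 2.33 and 2.46 FPKM. The 3 steps Day 10 to 15, Day 15 to 20 and Day 20 to 25 were each called (-0.58, -0.75 and -0.62, adjusted p = 0.0389, 0.0252 and 0.0367), and each was lost without a single mouse, at -0.32, -0.51 and -0.53 at the least. Across the whole span the difference was plain: every age from GD17.5 to Day 25 was above Day 60, from 2.95 ± 0.19 SE at Day 3 (adjusted p = 3.30e-14) to 0.78 at Day 25 (adjusted p = 0.00688), in all 44 alternatives. The adult mean was 10.7-fold under that of Day 3.

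Tsc22d3 encodes GILZ, a leucine zipper protein through which glucocorticoids restrain inflammatory signalling. It held 3.28, 3.42 and 2.66 FPKM in the fetuses and 6.73, 5.43 and 3.87 FPKM in the newborns, a 1.71-fold rise without overlap (log2 fold change 0.60 ± 0.21 SE, adjusted p = 0.0175). Without Day 0 mouse 1 the rise was 0.45 (adjusted p = 0.107), under the threshold, and without GD17.5 mouse 3 it was 0.52 (adjusted p = 0.0692). The highest means lay late in suckling, though no single step up to them passed (Day 5 to 10, 0.41, adjusted p = 0.132; Day 10 to 15, 0.54, adjusted p = 0.0956; Day 15 to 20, 0.16, adjusted p = 0.956). Day 15 mice held 7.73, 12.3 and 7.23 FPKM and Day 20 mice 9.08, 11.8 and 9.22 FPKM, above Day 60 at 3.18, 4.66 and 2.48 FPKM (1.18 and 1.34 ± 0.21 SE, adjusted p = 7.41e-05 and 2.17e-05).

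Tsc22d3 fell back between Day 20 and Day 25, the interval in which the pups were weaned. Day 25 mice held 4.28, 3.91 and 4.84 FPKM, 2.31-fold under Day 20 with no overlap (log2 fold change -1.04 ± 0.21 SE, adjusted p = 0.00121). In that step 2 of 8 tested members were called, Tsc22d3 and Fkbp5, both lower, against 7.19% of all genes tested and 3.26% lower; Tsc22d3 passed in all 44 alternatives. Of the 14 clock genes listed, 11 were tested and 7 fell in the same step, with none higher. The part of the clock in the Tsc22d3 value was not tested.

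Sgk1 encodes a serum- and glucocorticoid-induced kinase that acts on ion transport and insulin signalling, and its promoter window is the one printed above with the full response element. Fetal mice held 3.71, 3.30 and 3.72 FPKM, a coefficient of variation of 6.67%. Day 0 mice held 13.4, 5.73 and 3.93 FPKM, so the log2 fold change of 0.77 ± 0.32 SE (adjusted p = 0.0427) leaned on mouse 1, the library with muscle markers. Without that mouse it was 0.33 (adjusted p = 0.390), and the call was lost in 7 of 44 alternatives. Day 1 mice, at 10.4, 10.1 and 7.09 FPKM, all lay above all fetuses. The level was highest at Day 5 (9.94, 12.0 and 15.1 FPKM) and Day 15 (12.2, 16.6 and 10.95 FPKM), both above Day 60 at 4.49, 6.54 and 4.39 FPKM (1.12 and 1.21 ± 0.32 SE, adjusted p = 0.00307 and 0.00499). After upper-quartile scaling the Day 5 difference was 0.56 (adjusted p = 0.145) and no longer called.

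Dusp1, a phosphatase that switches off MAP kinases and answers to both glucocorticoids and stress signals, did not join the rise. Fetal mice held 12.4, 12.5 and 12.1 FPKM, Day 0 mice 8.60, 9.44 and 9.59 FPKM and Day 1 mice 5.56, 5.69 and 4.78 FPKM. These ages were separate from each other, in that order, but with 1 spread fitted over all 12 ages the changes were not called (-0.39 ± 0.45 SE, adjusted p = 0.479, and -0.69 ± 0.45 SE, adjusted p = 0.237). At later ages mice of an age lay far apart, with 2.89, 10.1 and 16.98 FPKM at Day 20 and 3.93, 7.67 and 25.2 FPKM at Day 30. The 15 immediate early genes, quick responders to handling and stress, summed to 110 FPKM in Day 20 mouse 3 against 51.2 and 64.4, with 9 of the 15 above both others, and to 79.8 FPKM in Day 30 mouse 3 against 59.6 and 58.4, with 11 of the 15 above both. Their part in the Dusp1 values was not tested. Only the fetal value differed from Day 60 (0.99 ± 0.45 SE, adjusted p = 0.0464), a call lost in 24 of 44 alternatives.

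Zbtb16, a zinc finger repressor known as a sensitive glucocorticoid target in many tissues, was scarce and fell under the filter. Fetal mice held 0.0549, 0.0372 and 0.0381 FPKM, about 16.96 fragments a library on average, and Day 0 mice 1.03, 0.472 and 0.461 FPKM, about 256 fragments. The mean was 15.1-fold higher without overlap, and 10.8-fold higher without Day 0 mouse 1. Day 1 mice held 0.498, 0.134 and 0.108 FPKM, so 2 of the 3 lay below every newborn. In the fit without a filter, over 18601 genes, the rise was 0.65 ± 0.13 SE on the log2(FPKM + 1) scale (adjusted p = 0.000187) and the fall to Day 1 was -0.40 (adjusted p = 0.0217). Without the 2 mice the rise was 0.49 (adjusted p = 0.00294) and the difference at Day 1 was -0.19 (adjusted p = 0.351), with a Day 1 mean of 0.649 times that of Day 0 in place of 0.377. A second high lay at Day 20, with 0.767, 0.478 and 0.477 FPKM, whose step up from Day 15 did not pass (0.37, adjusted p = 0.231).

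**Figure D3:**
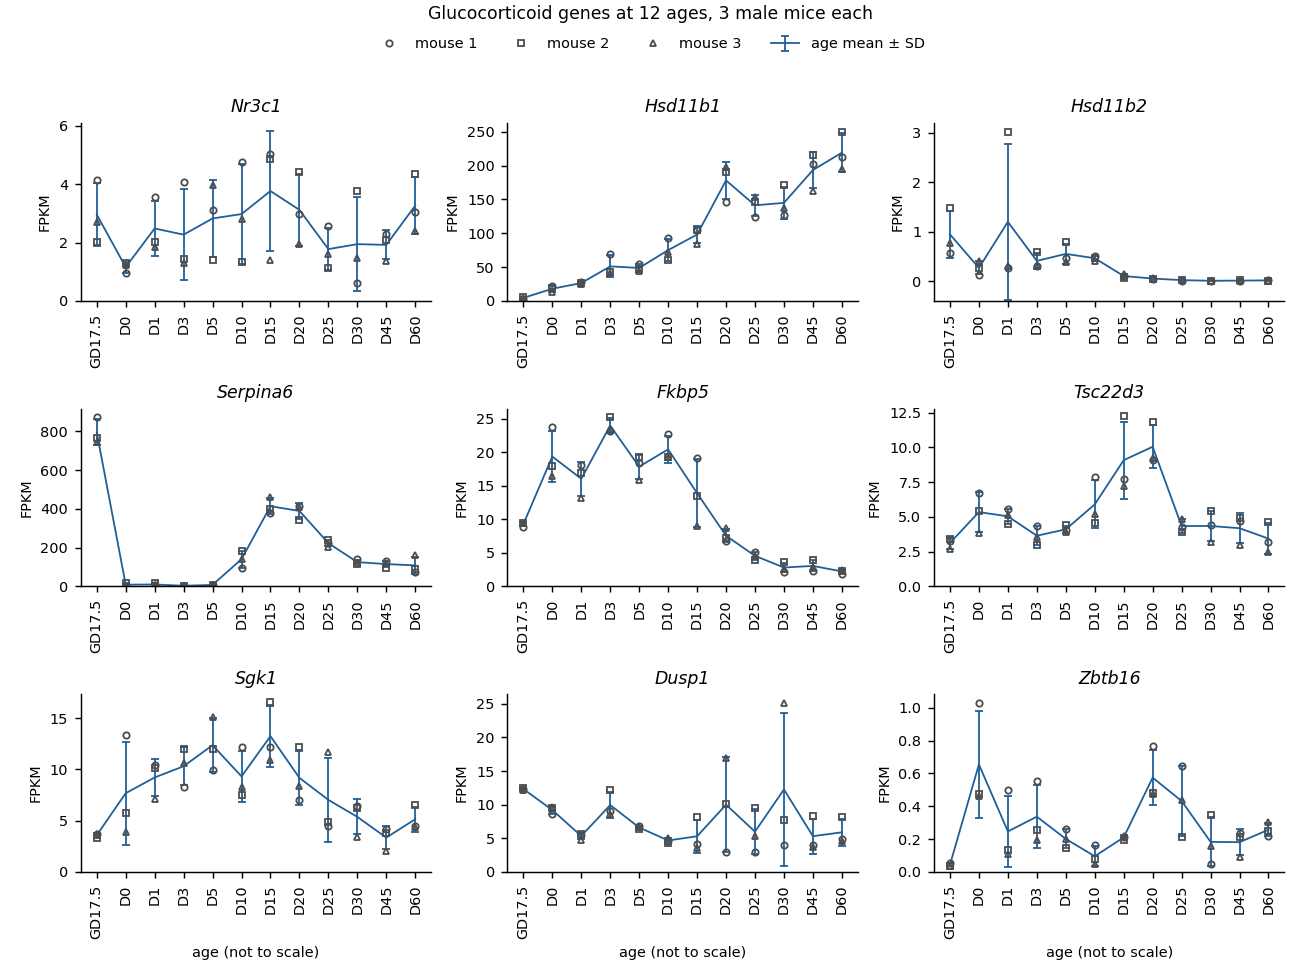
FPKM (linear axes) of the 9 genes at 12 ages, with each mouse as a symbol and a line through age means with SD bars (n = 3; age axis not to scale). Hsd11b1 and Fkbp5 run opposite ways after Day 10, Tsc22d3 peaks at Days 15 and 20, and the Dusp1 mice scatter most at Days 20 and 30.

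**Figure D4:**
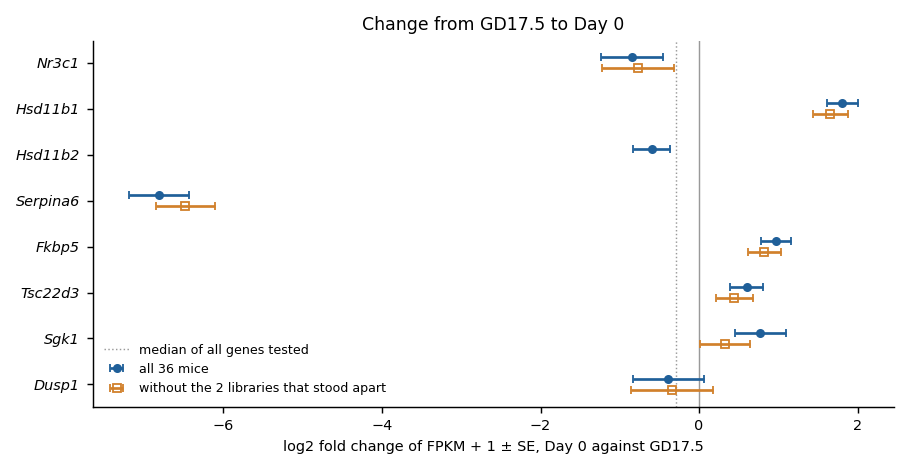
Log2 fold change (± SE) from GD17.5 to Day 0 on the log2(FPKM + 1) scale for the 8 tested members, from all 36 mice and without Day 0 mouse 1 and Day 1 mouse 2 (Hsd11b2 is then below the filter). The dotted line is the median gene at -0.29; Sgk1 moves from 0.77 to 0.33 and the other points shift by less.

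Set against both neighbouring ages, the newborn value of 4 of the 8 tested members stood out (Day 0 against the mean of GD17.5 and Day 1; 42.6% of all genes called, 16.6% of those higher, or 40.4% after upper-quartile scaling). Fkbp5 was higher (0.61 ± 0.16 SE, adjusted p = 0.00386), as was Hsd11b1 (0.62 ± 0.17 SE, adjusted p = 0.00528), whose Day 1 value was higher still. Serpina6 was lower (-3.60, adjusted p = 2.48e-09), with overlapping values at Day 0 and Day 1. The fourth is Hsd11b2 (-0.59, adjusted p = 0.0223), which was tested only through Day 1 mouse 2, and that mouse is part of the Day 1 mean in this comparison. Without it the Day 1 mean of Hsd11b2 was 0.287 FPKM, beside 0.267 FPKM at Day 0. None of the 8 had its highest age mean at Day 0. Without Day 0 mouse 1, 2 members were called, and without that mouse and Day 1 mouse 2 these were Serpina6 (-3.06) and Fkbp5 (0.48, adjusted p = 0.0454). In the fit without a filter Zbtb16 was also higher at Day 0 than at its neighbours (0.53, adjusted p = 0.000849), and Day 0 was its highest age. Without the 2 mice the difference was 0.34 (adjusted p = 0.0296), and its Day 0 mean of 0.467 FPKM was under that of Day 20 at 0.574 FPKM.

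Early postnatal life and adulthood differed for 5 of the 8 tested members (Days 3 to 10 against Days 25 to 60; 80.5% of all genes called). Fkbp5 (2.41 ± 0.10 SE, adjusted p = 7.93e-19) and Sgk1 (0.96 ± 0.17 SE, adjusted p = 1.09e-05) were higher early, and Serpina6 (-3.08 ± 0.20 SE, adjusted p = 4.66e-14) and Hsd11b1 (-1.59 ± 0.11 SE, adjusted p = 6.13e-14) were lower. Hsd11b2 was called higher (0.54 ± 0.13 SE, adjusted p = 0.000362), but it entered the test only through Day 1 mouse 2, the library with kidney markers, and without that mouse it was not tested. Among all genes 70% were higher early and 10.5% lower. The median gene was 0.49 higher early and 87.0% of calls were higher, or 0.12 and 61.4% after upper-quartile scaling. Relative to the unscaled median Hsd11b2 differed by 0.04, Sgk1 by 0.47 and Fkbp5 by 1.92. All 10 erythroid, 8 neutrophil, 7 macrophage, 6 endothelial and 7 stellate cell markers tested were also higher early. Of the 9 hepatocyte markers 6 were lower early and 2 higher. The part of these marker shifts in the members' values was not tested.

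Each age was also set against the adult at Day 60. At GD17.5, 4 of the 8 were higher and 1 lower, beside 75.1% of all genes called (56.4% higher and 18.6% lower). At Day 0, 2 of the 8 were higher and 3 lower, beside 63.9% of all genes called (43.6% higher and 20.3% lower). Among these were Tsc22d3, higher (limma, 0.52, adjusted p = 0.0322), and Nr3c1, lower (-0.96, adjusted p = 0.0326). Without Day 0 mouse 1 and Day 1 mouse 2 neither was called at Day 0 (limma, 0.36, adjusted p = 0.179, and -0.89, adjusted p = 0.0901). At Day 1, 3 of the 8 were higher and 2 lower, beside 65% of all genes called (53.4% higher and 11.7% lower). At Day 3, 2 of the 8 were higher and 2 lower, beside 66% of all genes called (55.7% higher and 10.3% lower). Serpina6 had its lowest level here, as given above. At Day 5, 3 of the 8 were higher and 2 lower, beside 65.4% of all genes called (56.9% higher and 8.5% lower). At Day 10, 2 of the 8 were higher and 1 lower, beside 46% of all genes called (35.3% higher and 10.6% lower). Serpina6 was called lower than in the adult at Days 0, 1, 3 and 5 and at no later age. At Day 15, 4 of the 8 were higher and 1 lower, beside 27.4% of all genes called (18.4% higher and 8.95% lower). At Day 20, 3 of the 8 were higher and 0 lower, beside 15.9% of all genes called (8.93% higher and 6.99% lower). At Day 25, 1 of the 8 was higher and 1 lower, beside 7.42% of all genes called (4.18% higher and 3.24% lower). Hsd11b1 was lower and Fkbp5 higher than in the adult at each age up to Day 15. Hsd11b2 is among the higher genes at GD17.5, Day 1 and Day 5, tested only through Day 1 mouse 2, which also sets its Day 1 mean. Without the 2 mice the Day 1 difference of Sgk1 was not called either (0.67, adjusted p = 0.0711), whereas that of Tsc22d3 was (0.54, adjusted p = 0.0463, against 0.47 and 0.0511 with all mice).

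Across the 11 comparisons with Day 60, 7 of the 8 tested members differed in at least 1 age when p-values were adjusted over all genes and ages together, as did 90.7% of all genes. Hsd11b2 is among the 7, but it entered the test only through Day 1 mouse 2 and was not tested without that mouse. Dusp1 did not differ (limma, adjusted p = 0.0793), and Nr3c1 was at the threshold (0.0494). By the Dunnett test Nr3c1 and Dusp1 differed from Day 60 at 0 ages, Tsc22d3 at Days 15 and 20, and Sgk1 at Days 5 and 15. Hsd11b2 differed at GD17.5 and Day 1 by that test, Serpina6 at 7 ages, Hsd11b1 at 8 and Fkbp5 at 9. No tested member differed from Day 60 at Day 30 or Day 45 (limma, 0 of 8 each; 3.56% and 0.233% of all genes called, 1.77% and 0.0628% higher, 1.79% and 0.17% lower). At an unadjusted p under 0.05 there was 1 at Day 30, Hsd11b1, and 0 at Day 45.

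Chaperones that hold the receptor ready fell at birth. Of 10 chaperones and co-chaperones of the receptor complex, 9 fell from GD17.5 to Day 0 and none was called higher (median log2 fold change -1.18, against -0.29 and 41.4% called lower over all genes). Hsp90aa1, the inducible Hsp90, went from 55.6, 24.3 and 31.1 FPKM to 8.78, 6.23 and 7.41 FPKM (-2.09 ± 0.37 SE, adjusted p = 3.59e-05), and Ppid, the cyclophilin of the complex, from 5.33 to 9.27 FPKM to 1.13 to 1.63 FPKM (-1.66 ± 0.23 SE, adjusted p = 1.02e-06). Ptges3, the p23 co-chaperone, fell (-1.44 ± 0.38 SE, adjusted p = 0.00243) and rose again by Day 1 (1.32, adjusted p = 0.00963). Of 10 coregulators tested, 5 fell and none was called higher (median -0.50), a share near the 41.4% of all genes, and 3 fell without the 2 mice. Among those that fell with all mice were the acetyltransferase Ep300 (-1.05 ± 0.30 SE) and the corepressor Ncor1 (-1.03 ± 0.33 SE).

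Most of the liver's metabolic glucocorticoid targets were called higher. Of 20 listed genes 14 rose from GD17.5 to Day 0 and none was called lower (median 1.27), beside 13.1% and 41.4% of all genes, and 13 rose without the 2 mice. Of the 9 hepatocyte markers 8 rose in the same step (median 2.455), and Tat is on both lists. The part of this general rise in the values of the targets was not tested. The metallothioneins Mt1 and Mt2, the most abundant of the list in the fetus, were not called (-1.18 and -1.55, adjusted p = 0.141 and 0.0699), although their values did not overlap. Mt1 had 1812 to 2853 FPKM at GD17.5 and 898 to 1215 FPKM at Day 0, and Mt2 had 1452 to 1683 FPKM and 385 to 657 FPKM. G6pc, which releases free glucose, went from 0.0366, 0.0381 and 0.0451 FPKM to 226, 42.4 and 59.8 FPKM (6.34 ± 0.42 SE, adjusted p = 8.26e-13). Pck1, the gluconeogenic carboxykinase, went from 0.136, 0.338 and 0.204 FPKM to 293, 4.37 and 32.4 FPKM (4.94 ± 0.70 SE, adjusted p = 1.73e-06), and Tat, which degrades tyrosine, from 0.164, 0.295 and 0.192 FPKM to 126, 4.11 and 9.21 FPKM (3.95 ± 0.58 SE, adjusted p = 2.58e-06). In all 3 genes every newborn exceeded every fetus, and Day 0 mouse 1 was the highest newborn, as it was for Sgk1 and Zbtb16. Without the 2 mice the log2 fold changes were 5.63 for G6pc, 3.45 for Pck1 and 2.57 for Tat (adjusted p = 3.80e-12, 2.68e-06 and 4.63e-08). By Day 1, 1 of the 20 had risen from Day 0 (Pck1, 2.31, adjusted p = 0.0142, named here after its value was seen) and 4 had fallen (4 and 3 without the 2 mice; 23.7% and 7.88% of all genes), led by Lpin1, a phosphatidate phosphatase and coactivator, which went from 28.4, 18.1 and 17.03 FPKM to 3.97, 1.77 and 0.959 FPKM (-2.85 ± 0.30 SE, adjusted p = 2.69e-08).

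Other regulatory targets moved in part. Of 14 tested, 5 rose and 1 fell at birth (median 0.18), beside 13.1% higher and 41.4% lower among all genes. Cdkn1a, the cell cycle inhibitor p21, went from 4.10, 4.52 and 3.98 FPKM to 48.7, 31.01 and 39.9 FPKM (2.95 ± 0.30 SE, adjusted p = 4.50e-09) and was down to 13.3, 14.9 and 10.4 FPKM at Day 1 (-1.55, adjusted p = 0.00026). Per1, a clock gene with known glucocorticoid control, was higher at Day 0 than at GD17.5 and lower at Day 1 than at Day 0 (0.83 and -0.86, adjusted p = 0.0041 and 0.00633; without the 2 mice 0.65 and -0.58, adjusted p = 0.036 and 0.117), and Zfp36, which destabilises inflammatory mRNAs, rose (0.95 ± 0.25 SE, adjusted p = 0.00242). Early against late, Cdkn1c (4.99 ± 0.15 SE) and Anxa1, the anti-inflammatory annexin (2.91 ± 0.12 SE), were higher on Days 3 to 10, among 10 of 14 higher and 1 lower, shares close to the 70% and 10.5% of all genes. Of 13 tested genes of corticosteroid metabolism, a list of enzymes that reduce, hydroxylate or conjugate steroids and of H6pd, which supplies NADPH to Hsd11b1, 6 rose and 1 fell at birth, and Akr1c6, an aldo-keto reductase, went from 0.913 to 1.42 FPKM to 14.3 to 17.8 FPKM (2.97 ± 0.22 SE, adjusted p = 8.30e-12). Of 11 immediate early genes 2 were higher and 4 lower, close to the shares of all genes, and of 11 clock genes 3 were called higher (2 without the 2 mice) and none lower.

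Between mice of the same age, some members deviated together. Deviations from the age mean of log2(FPKM + 1) were compared for all 28 pairs of the 8 tested members over 36 mice (two-sided permutation within ages, 100000 resamples, adjusted over the 28 pairs). Tsc22d3 went with Hsd11b1 (Pearson r = 0.70, p = 0.00019, adjusted p = 0.00266; Spearman rho = 0.70, p = 0.00024, adjusted p = 0.00532) and with Sgk1 (r = 0.67, p = 0.00017, adjusted p = 0.00266; rho = 0.67, p = 0.00038, adjusted p = 0.00532). Without the 2 mice farthest from the median on the x axis (Hsd11b1, then Tsc22d3), r was 0.68 and 0.65. Both libraries with the most muscle markers lay above their age means in Hsd11b1, Tsc22d3 and Sgk1. Day 0 mouse 1 did so by 0.30, 0.31 and 0.88, and Day 10 mouse 1 by 0.32, 0.39 and 0.38. An r without these libraries is not given here. The other 26 pairs did not pass; Tsc22d3 with Dusp1 gave r = 0.07 (permutation p = 0.755, adjusted p = 0.919) and Tsc22d3 with Fkbp5 r = 0.28 (permutation p = 0.281, adjusted p = 0.462). After scaling each library to a sum of 1000000, 7 pairs passed. Mice with replicate number 3 lay below their age mean in 10 of 12 ages for Tsc22d3, 9 for Hsd11b1 and 8 for Sgk1. With the mean of each replicate number taken out as well, r was 0.645 for Tsc22d3 with Hsd11b1 and 0.662 for Tsc22d3 with Sgk1. The mice share their libraries, so depth and tissue pieces enter all genes of a mouse at the same time, and their part was not tested.

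**Figure D5:**
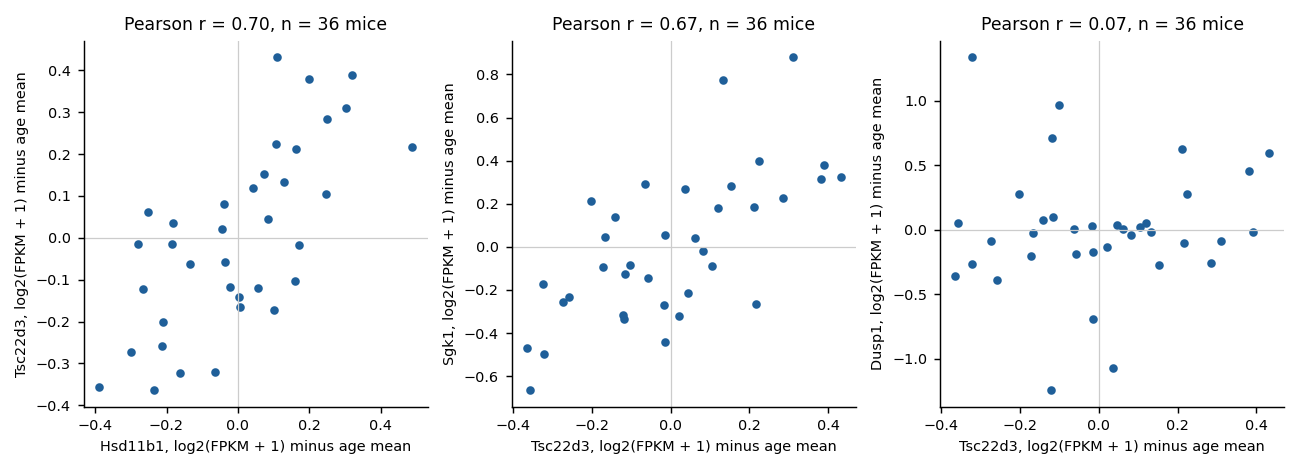
Deviation of each of 36 mice from its age mean, log2(FPKM + 1), for 3 pairs of genes. Tsc22d3 rises with Hsd11b1 (r = 0.70) and Sgk1 rises with Tsc22d3 (r = 0.67), whereas Dusp1 shows no slope against Tsc22d3 (r = 0.07).

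The genes whose 12 age means ran most like each member, among all genes tested, differed from member to member, with 3 named for each. For Hsd11b1 they were Clu (r = 0.99), Slc27a5 (r = 0.99) and Aldh1l1 (r = 0.99), and for Fkbp5 Cd63, Cux2 and Dchs1 (r = 0.98 each). Tsc22d3 was nearest to Usp2 (r = 0.93), a ubiquitin protease with a daily rhythm, Atp6v0d2 and Sult2a4 (r = 0.88 each), and Sgk1 to Lhfp (r = 0.94), Tmco4 and C630043F03Rik (r = 0.93 each). Serpina6 had no close match, its nearest being 1110012L19Rik (r = 0.78), Dhx32 (r = 0.76) and Gpr155 (r = 0.74), and Dusp1 was similar in this, with Oaz1, Aurkaip1 and 1110038D17Rik (r = 0.80 to 0.81). Nr3c1 was nearest to Fbxo3 (r = 0.97), Tshz1 (r = 0.93) and Wwp1 (r = 0.92). The neighbours of Hsd11b2, Ywhaz (r = 0.99), Pabpn1 and Dusp7 (r = 0.97 each), were matched to age means of which Day 1 rests mainly on mouse 2. These are descriptions over 12 age means.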

How the data were processed

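Polyadenylated RNA of 36 male mouse livers was sequenced as paired ends. Per the labels and the methods of the authors, reads were mapped with TopHat 1.2.0 to mm9 and turned into gene FPKM values by Cufflinks 1.0.3, and the deposited values are FPKM with 1 column per mouse. Counts were not used here, so depth was estimated from the steps between low values (77.3% of them within 0.1 of a whole multiple). Groups are the 12 ages given by the labels, with 3 mice each. The labels do not name the litter of a mouse, so mice of an age may share one. The limma p-values rest on a spread between mice of an age that was pooled over all 12 ages. No pair of columns was identical, and the lowest correlation between mice of an age was 0.952.

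Values were tested as log2(FPKM + 1) with limma 3.58.1 in R 4.3.3 (trended variance, 1 mean per age, 36 mice, the 11149 genes whose mean reached 1 FPKM at some age), and p-values were adjusted by Benjamini-Hochberg over all these genes, with calls at 0.05. The fit was tested on simulated data. Alternatives changed the pseudocount, filter, scaling and mice, or added a replicate block. The members and the gene and marker lists were chosen with earlier results of these data known. The other genes named are, by rule, up to 3 called genes of each list with the largest changes and no overlap of the groups (Day 0 against GD17.5, Day 1 against Day 0, Days 3 to 10 against Days 25 to 60), and the 3 nearest genes to each tested member by the correlation of age means. All 9 genes are reported.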

Additional observations from a re-analysis of the deposited data

How the results depend on the processing

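The depth of the libraries limits Hsd11b2 in the adult and Zbtb16 in the fetus. Of 2797 values of 64 single-member calls under the alternatives, 2621 stayed past the threshold, 176 did not and 0 changed direction. Counts of called members that moved by over 1.5 times were as follows, and the cause was not tested. With upper-quartile scaling 3 members differed from Day 60 at Day 5 (against 5), and 0 from Day 0 at Day 1 (against 1). Without a filter, and with libraries scaled to a sum of 1000000, 1 member differed at Day 25 from Day 60 (against 2), 2 at Day 1 from Day 0, and 1 at Day 25 from Day 20 (against 2). The latter scaling gave 7 pairs of members that deviated together within an age, against 2. Without both Day 0 mouse 1 and Day 1 mouse 2, 3 members differed at GD17.5 from Day 60 (against 5), 3 at Day 0 from Day 60 (against 5), 3 at Day 25 from Day 60, 3 at Day 0 from GD17.5 (against 6) and 2 at Day 0 from its neighbours (against 4).

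Leaving out mice gave ranges of 5 to 8 members that differed from Day 60 at some age, 3 to 5 at GD17.5, 3 to 5 at Day 0, 3 to 6 at Day 1, 3 to 4 at Day 3, 4 to 5 at Day 5, 2 to 4 at Day 10 and 1 to 3 at Day 25. The range was 3 to 7 for Day 0 against GD17.5, 0 to 2 for Day 1 against Day 0, 2 to 4 for Day 0 against its neighbours, 4 to 5 for Days 3 to 10 against Days 25 to 60, 1 to 2 for Day 25 against Day 20, 13 to 19 for calls over the 11 successive steps and 2 to 4 for pairs that deviated together.

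The replicate block gave 2 members for Day 1 against Day 0, against 1, and 19 successive calls, against 18. Mice with the same replicate number had a median correlation of deviations of 0.126, with 104 of 198 pairs above 0.1, and mice with different numbers one of -0.048, with 147 of 396 above 0.1. Same-numbered mice thus deviated together somewhat more often, but the lowest correlation among them was -0.68 and the labels name nothing that a number shares, so the numbers were not taken as pairs.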
